A study of Mus musculus with 12 samples.

Results

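Of 10 listed genes of the NRF2 antioxidant program and of cytosolic NADPH supply, 9 were measured in mouse liver (Nqo1, Gclc, Gclm, Txnrd1, Srxn1, Hmox1, Gsr, Slc7a11 and Pgd), among 22180 genes in all. A gene was taken from the probe set that names it alone, and from the one with the highest mean over 12 arrays where there were several. G6pdx has no probe set that names it alone and was not analysed here. The livers came from male C57Bl/6N mice, 2 months old, whose Trp53 gene is flanked by loxP sites (p53 fl/fl). Each mouse received an adenovirus through the tail vein, either Adeno-Cre, whose recombinase cuts out the floxed part of Trp53, or Adeno-GFP, which carries a fluorescent protein in its place. After 3 days some mice went without food for 24 hours and the others ate freely. This gave 4 groups of 3 arrays, named here Adeno-GFP fed, Adeno-GFP fasted, Adeno-Cre fed and Adeno-Cre fasted. All the mice carried the floxed gene and a virus, so the injections differ in the virus's cargo as well as in p53, and no group went without a virus. The sources used here name neither the promoter that drives Cre nor the share of cells that it reached.

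NRF2, encoded by Nfe2l2, is a transcription factor that KEAP1 holds in the cytoplasm and hands to the proteasome until oxidants or electrophiles modify KEAP1. Freed NRF2 pairs with small MAF proteins at antioxidant response elements and raises genes for glutathione synthesis, thioredoxin reduction, quinone reduction and drug conjugation. The reductases among them spend NADPH, which in hepatocytes the oxidative pentose phosphate pathway (glucose-6-phosphate dehydrogenase, then 6-phosphogluconate dehydrogenase, encoded by Pgd), malic enzyme and isocitrate dehydrogenase supply, also for fatty acid synthesis. p53 is known to bear on the same balance of oxidants through several of its targets.

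The levels below are log2 expression values per probe set as deposited, so a difference of 1 is a doubling. They are compared between arrays for 1 gene at a time and not between genes, since probe sets differ in brightness. A gene was called changed at an adjusted p under 0.05 from limma's moderated test over all 22180 genes. Array medians lay between 6.26 and 6.33. In these whole-liver samples, fewer cells of a type and less RNA per cell cannot be told apart. The labels give only the number of each replicate, so the p-values below speak of the spread among these arrays. Trp53 has no probe set that names it alone and was not checked. Of its known targets, Ccng1, a cyclin-like p53 target, fell by 0.54 (SE 0.065, adjusted p = 0.000376) and Dcxr, a carbonyl reductase, fell by 0.63 (SE 0.060, adjusted p = 9.97e-05) with Adeno-Cre over both diets. Cdkn1a, the p21 cell cycle inhibitor, differed by -0.56 (SE 0.24, adjusted p = 0.21). The mean level of the 8 hepatocyte markers measured was 12.33 to 12.36 on the Adeno-GFP fed and 12.37 to 12.45 on the Adeno-GFP fasted arrays. It was 12.25 to 12.32 on the Adeno-Cre fed and 12.28 to 12.31 on the Adeno-Cre fasted arrays. With Adeno-Cre over both diets 1 of their 8 differences was above 0, with a median of -0.11, and 0 passed. Of the other markers, 5 of 7 for cholangiocytes, 7 of 10 for monocytes and neutrophils and 10 of 13 for lymphocytes lay under the lowest array median. With Adeno-Cre over both diets 1 of the 10 monocyte and neutrophil markers rose and 0 fell (median -0.033). Among the 13 lymphocyte markers 1 rose and 0 fell (median 0.011).

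Promoter sequences of the members called in a comparison are shown because these genes moved with injection or diet. RefSeq windows (GRCm38.p6, from 250 bases before to 50 after a gene's start) were at hand for 7 of the 10 listed genes, 6 of them measured; Gclc, Hmox1 and Gsr had none. Capitals mark a match to the core of the antioxidant response element, TGACNNNGC, on either strand (where it lies on the strand opposite to the gene, the capitals show its reverse complement). Pgd has 2 annotated starts: the windows are chr4:149166656-149166955 and chr4:149166033-149166332, both on the minus strand. The Nqo1 window is chr8:107403156-107403455 (minus strand) and the Gclm window is chr3:122245307-122245606 (plus strand).
Pgd window 1: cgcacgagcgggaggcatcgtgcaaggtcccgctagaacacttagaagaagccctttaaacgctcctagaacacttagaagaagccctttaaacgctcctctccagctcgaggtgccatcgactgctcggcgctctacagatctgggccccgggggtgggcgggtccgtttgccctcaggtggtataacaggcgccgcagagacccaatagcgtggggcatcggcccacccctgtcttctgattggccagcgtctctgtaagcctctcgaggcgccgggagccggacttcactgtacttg
Pgd window 2: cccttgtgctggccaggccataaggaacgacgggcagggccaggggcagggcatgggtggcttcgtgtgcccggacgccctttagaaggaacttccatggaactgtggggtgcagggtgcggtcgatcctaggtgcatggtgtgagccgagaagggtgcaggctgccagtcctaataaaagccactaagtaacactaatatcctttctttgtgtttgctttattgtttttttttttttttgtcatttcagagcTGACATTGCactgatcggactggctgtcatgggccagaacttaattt
Nqo1: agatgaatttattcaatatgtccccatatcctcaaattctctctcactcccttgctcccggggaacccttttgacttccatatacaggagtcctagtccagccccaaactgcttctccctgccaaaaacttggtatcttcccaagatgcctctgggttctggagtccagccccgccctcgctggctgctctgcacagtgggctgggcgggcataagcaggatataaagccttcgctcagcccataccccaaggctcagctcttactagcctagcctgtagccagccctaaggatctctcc
Gclm: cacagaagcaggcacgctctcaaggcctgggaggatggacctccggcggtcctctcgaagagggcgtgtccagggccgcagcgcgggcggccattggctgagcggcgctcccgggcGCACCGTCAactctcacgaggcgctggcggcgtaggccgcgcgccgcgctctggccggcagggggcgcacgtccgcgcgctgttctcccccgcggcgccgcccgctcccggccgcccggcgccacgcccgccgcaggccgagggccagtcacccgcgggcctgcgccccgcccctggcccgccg
The core occurred in 12.4% of all 32851 RefSeq windows of this length. In the Gclm window it read TGACGGTGC on the opposite strand, with its first base 134 bases before the start. In the second Pgd window it read TGACATTGC on the gene's own strand. There its first base lay 3 bases after the start, so this match is not upstream of the start. Among the other listed genes, 1 of the 3 Txnrd1 windows (TGACAAAGC) and the windows of Srxn1 (TGACCTAGC) and G6pdx (TGACTGAGC) held it, and that of Slc7a11 did not. In Srxn1 its first base lay 28 bases after the start. Sequence further than 250 bases before a start was not searched. A window without a match therefore does not show that a gene lacks the element. A stricter search for the full antioxidant response element, a longer sequence with every base fixed (0.155% of all windows), found no match in any member's window. The sterol regulatory element TCACNCCAC (1.24% of all windows) and the E-box CACGTG (7.15%) were not found in any member's window either. These matches are letters in a window and say nothing of binding.

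The first question was whether these genes differ between Adeno-Cre and Adeno-GFP livers. Over both diets 4 of the 9 members rose with Adeno-Cre (Pgd, Nqo1, Gclc and Gsr) and 0 fell, where 3.55% of all genes rose and 2.03% fell. The median difference of the members was 0.19, beside -0.03 over all genes. Within fed livers 1 member rose (Pgd) and 0 fell, where 1.08% of all genes rose and 0.415% fell. Within fasted livers 2 rose (Pgd and Nqo1) and 0 fell, where 2.26% of all genes rose and 0.482% fell. Gclm, Txnrd1, Srxn1, Hmox1 and Slc7a11 did not pass in any of these 3 comparisons. The comparisons share arrays, as the mean over diets is built from the other two.

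Pgd catalyses the second NADPH-yielding step of the pentose phosphate pathway. Its levels were 8.05, 8.03 and 8.16 on the Adeno-GFP fed arrays and 8.70, 8.79 and 8.59 on the Adeno-Cre fed arrays. In fasted livers they were 7.67, 7.33 and 7.59 after Adeno-GFP and 8.01, 8.19 and 8.06 after Adeno-Cre. All Adeno-Cre arrays were higher than all Adeno-GFP arrays of the same diet, and the values of fasted Adeno-Cre livers overlapped with those of fed Adeno-GFP livers. Group means were 8.08 ± 0.068, 7.53 ± 0.18, 8.70 ± 0.099 and 8.09 ± 0.095 (SD, n = 3) in Adeno-GFP fed, Adeno-GFP fasted, Adeno-Cre fed and Adeno-Cre fasted livers. Pgd rose 1.53-fold with Adeno-Cre in fed livers (log2 difference 0.62, SE 0.098, limma adjusted p = 0.0148) and 1.47-fold in fasted livers (0.56, SE 0.098, limma adjusted p = 0.00803). Over both diets the difference was 0.59 (SE 0.069, limma adjusted p = 0.000361). The call in fed livers was lost without Adeno-GFP fed replicate 1 (0.60, limma adjusted p = 0.0664) or replicate 3 (0.66, limma adjusted p = 0.0531). The call in fasted livers was lost when only the 2 groups compared were fitted (limma adjusted p = 0.0577).

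Markers of proliferation and of the interferon response moved with the same injection. The mean level of 19 cell cycle genes was 7.49 to 8.11 on the Adeno-GFP fed arrays, 6.65 to 7.45 on the Adeno-GFP fasted arrays, 8.76 to 8.83 on the Adeno-Cre fed arrays and 8.50 to 8.83 on the Adeno-Cre fasted arrays, and 19 of 19 rose over both diets. The mean level of 18 type I interferon response genes was 7.87 to 8.18, 7.71 to 8.25, 9.05 to 9.94 and 8.13 to 8.46 in the same order, and 11 of 18 rose. The mean level of 15 Kupffer cell and macrophage markers was 8.10 to 8.17, 7.91 to 8.39, 7.78 to 8.27 and 7.48 to 7.97. None of those 15 lay under the lowest array median, and 1, the lysozyme gene Lyz2, fell with Adeno-Cre. The mean level of 11 stellate cell markers was 8.47 to 8.51, 8.26 to 8.37, 8.23 to 8.37 and 7.96 to 8.20, with 0 of 11 differences above 0, a median of -0.20 and 2 that fell. The mean level of 11 sinusoidal endothelial markers was 8.86 to 8.92, 8.50 to 8.85, 8.32 to 8.80 and 8.56 to 8.71. Of these, 0 passed in limma and 4 had an unadjusted p under 0.05, and all 11 differences were under 0, with a median of -0.16 over both diets and -0.31 in fed livers. No stellate or endothelial marker lay under the lowest array median. The part of these genes in the differences of the members was not tested.

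The genes whose levels ran closest to those of Pgd over the 12 arrays, by the mean absolute difference after centring each gene on its own mean, were Cenpj (0.081), Prg4 (0.11), Chek2 (0.12), Psmb9 (0.13) and Cep192 (0.13). The median of all genes was 0.37. Cenpj and Cep192 encode centriole proteins, Chek2 a DNA damage checkpoint kinase, Psmb9 an interferon-inducible proteasome subunit and Prg4 the secreted proteoglycan lubricin. Cenpj differed by 0.57 with Adeno-Cre and by -0.60 with fasting, beside 0.59 and -0.58 for Pgd.

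**Figure D1:**
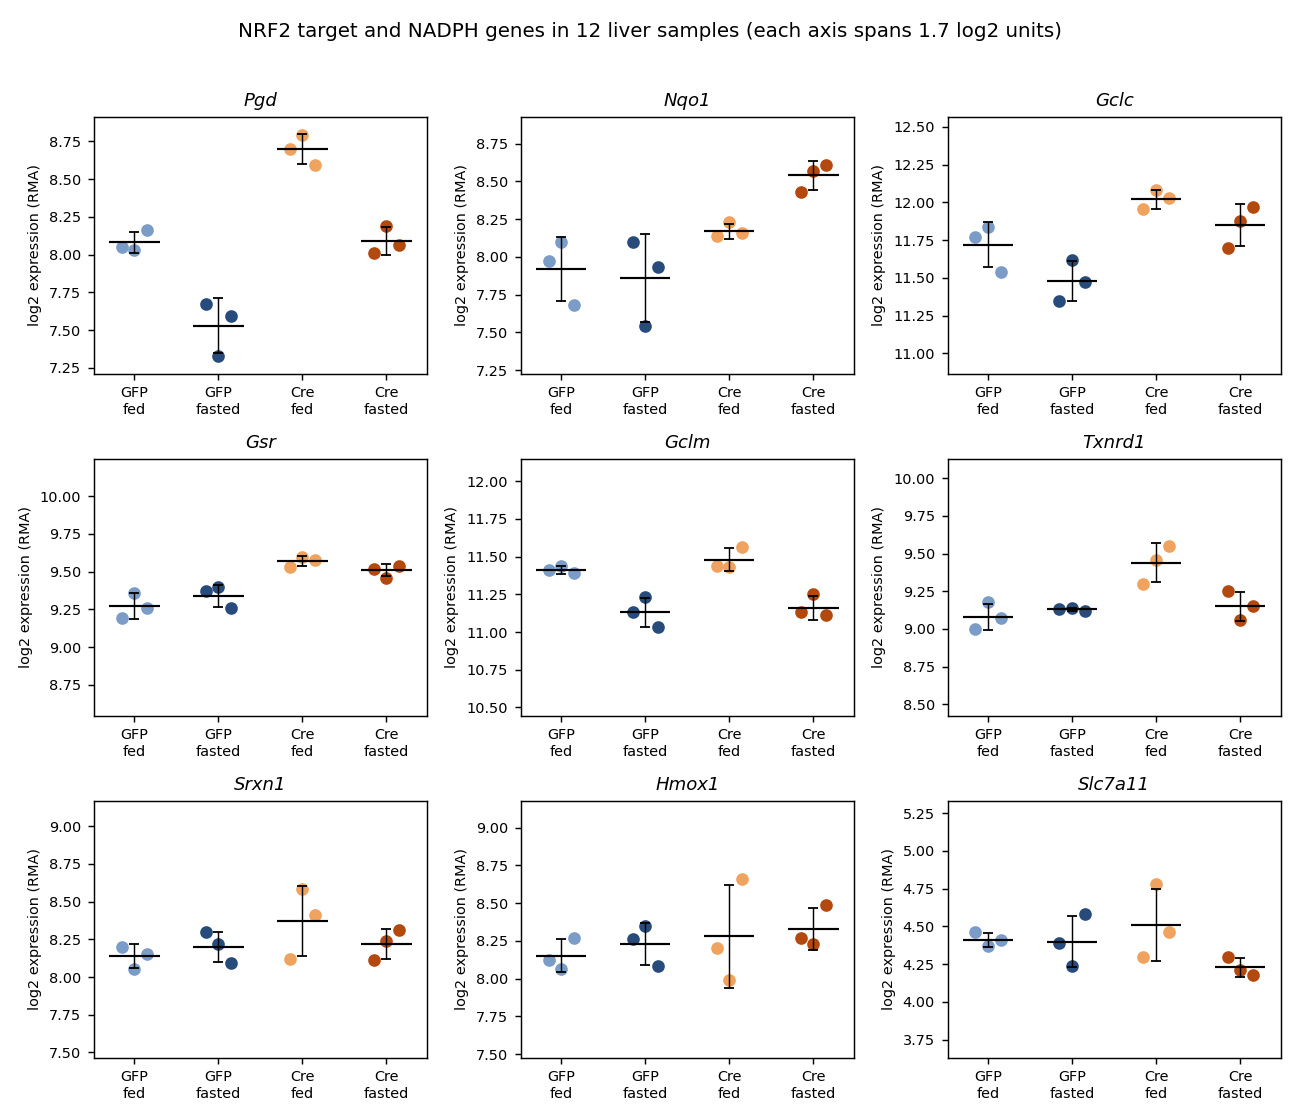
Log2 expression (vertical axis, spanning 1.7 units in every panel) of the 9 measured members in Adeno-GFP fed, Adeno-GFP fasted, Adeno-Cre fed and Adeno-Cre fasted livers. Points are single arrays, horizontal lines group means and bars 1 SD (n = 3). Pgd is separated by injection within each diet and by diet within each injection, while its Adeno-GFP fed and Adeno-Cre fasted groups overlap. The groups of Hmox1 and Srxn1 overlap.

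Nqo1 encodes a quinone reductase that is widely used as a readout of NRF2. Its levels were 7.97, 8.10 and 7.68 on the Adeno-GFP fed arrays and 8.14, 8.23 and 8.16 on the Adeno-Cre fed arrays. In fasted livers they were 8.10, 7.54 and 7.93 after Adeno-GFP and 8.43, 8.57 and 8.61 after Adeno-Cre. All 6 Adeno-Cre arrays were above all 6 Adeno-GFP arrays, with Adeno-Cre fasted livers highest. Nqo1 rose 1.6-fold in fasted livers (0.68, SE 0.14, limma adjusted p = 0.0184) and 1.38-fold over both diets (0.47, SE 0.097, limma adjusted p = 0.0139). In fed livers the difference was 0.25 (95% interval -0.044 to 0.55, limma adjusted p = 0.492). The call in fasted livers was lost without Adeno-Cre fasted replicate 2 (0.665, limma adjusted p = 0.0772) or Adeno-GFP fasted replicate 2 (0.525, limma adjusted p = 0.0572), when only the 2 groups compared were fitted (limma adjusted p = 0.0667) and when all probe sets were tested (limma adjusted p = 0.0527). The call over both diets held under each alternative tried.

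Gclc and Gclm encode the catalytic and the modifier subunit of glutamate-cysteine ligase, the limiting enzyme of glutathione synthesis. The levels of Gclc were 11.77, 11.84 and 11.54 in Adeno-GFP fed and 11.35, 11.62 and 11.47 in Adeno-GFP fasted livers. They were 11.96, 12.08 and 12.03 in Adeno-Cre fed and 11.70, 11.88 and 11.97 in Adeno-Cre fasted livers. Within each diet the Adeno-Cre arrays of Gclc were all above the Adeno-GFP arrays. Gclc rose 1.27-fold over both diets (0.34, SE 0.073, limma adjusted p = 0.017), with 0.31 in fed (limma adjusted p = 0.206) and 0.37 in fasted livers (limma adjusted p = 0.0848). Gclm stood at 11.41 ± 0.025 and 11.48 ± 0.076 in fed livers after Adeno-GFP and Adeno-Cre, and at 11.13 ± 0.098 and 11.16 ± 0.078 in fasted livers (SD, n = 3). Its Adeno-Cre difference over both diets was 0.048, with a 95% interval of -0.071 to 0.17 (limma adjusted p = 0.683).

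Gsr encodes glutathione reductase, which spends NADPH to restore reduced glutathione. It was at 9.19, 9.36 and 9.26 in Adeno-GFP fed livers and 9.37, 9.40 and 9.26 in Adeno-GFP fasted livers. After Adeno-Cre it was at 9.53, 9.60 and 9.58 in fed and 9.52, 9.46 and 9.54 in fasted livers, so that all 6 Adeno-Cre arrays were above all 6 Adeno-GFP arrays. Gsr and Nqo1 were the 2 members with this separation, which 2.11% of all genes showed in the same direction. Gsr rose 1.18-fold over both diets (0.23, SE 0.052, limma adjusted p = 0.0198). This call was lost without Adeno-Cre fed replicate 2 (0.23, limma adjusted p = 0.0507), Adeno-GFP fed replicate 1 (0.21, limma adjusted p = 0.0556) or Adeno-GFP fed replicate 3 (0.23, limma adjusted p = 0.0512). In fed livers alone the difference was 0.30 (limma adjusted p = 0.0699) and in fasted livers 0.17 (limma adjusted p = 0.271).

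Txnrd1, the cytosolic thioredoxin reductase, was at 9.00, 9.18 and 9.07 in Adeno-GFP fed livers and 9.30, 9.46 and 9.55 in Adeno-Cre fed livers, where the arrays did not overlap. In fasted livers it was at 9.13, 9.14 and 9.12 after Adeno-GFP and 9.25, 9.06 and 9.15 after Adeno-Cre, which overlapped. The Adeno-Cre difference was 0.35 in fed livers (95% interval 0.16 to 0.54, limma adjusted p = 0.0694) and 0.023 in fasted livers (-0.16 to 0.21, limma adjusted p = 0.921). With Pgd, Gclc, Nqo1 and Gsr, Txnrd1 was among 5 members whose fed Adeno-Cre arrays all lay above the fed Adeno-GFP arrays, which 8.4% of all genes showed. In fasted livers Pgd, Nqo1, Gclc and Gsr, 4 members, were separated in this way, as were 9.96% of all genes.

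Srxn1, Hmox1 and Slc7a11 did not pass. Srxn1, sulfiredoxin, which repairs overoxidised peroxiredoxins, ran from 8.05 to 8.58 over the 12 arrays and differed by 0.13 over both diets (95% interval -0.045 to 0.30, limma adjusted p = 0.419). Hmox1, the inducible heme oxygenase, ran from 7.99 to 8.66, with both extremes among the Adeno-Cre fed arrays, and differed by 0.12 (-0.11 to 0.35, limma adjusted p = 0.585). Slc7a11, the cystine transporter subunit, which p53 is known to repress in other cells, ran from 4.18 to 4.78, under the lowest array median, and is not shown to be above background. Its difference was -0.038 (limma adjusted p = 0.848), and its other probe set was lower still, at 3.12 to 3.54.

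**Figure D2:**
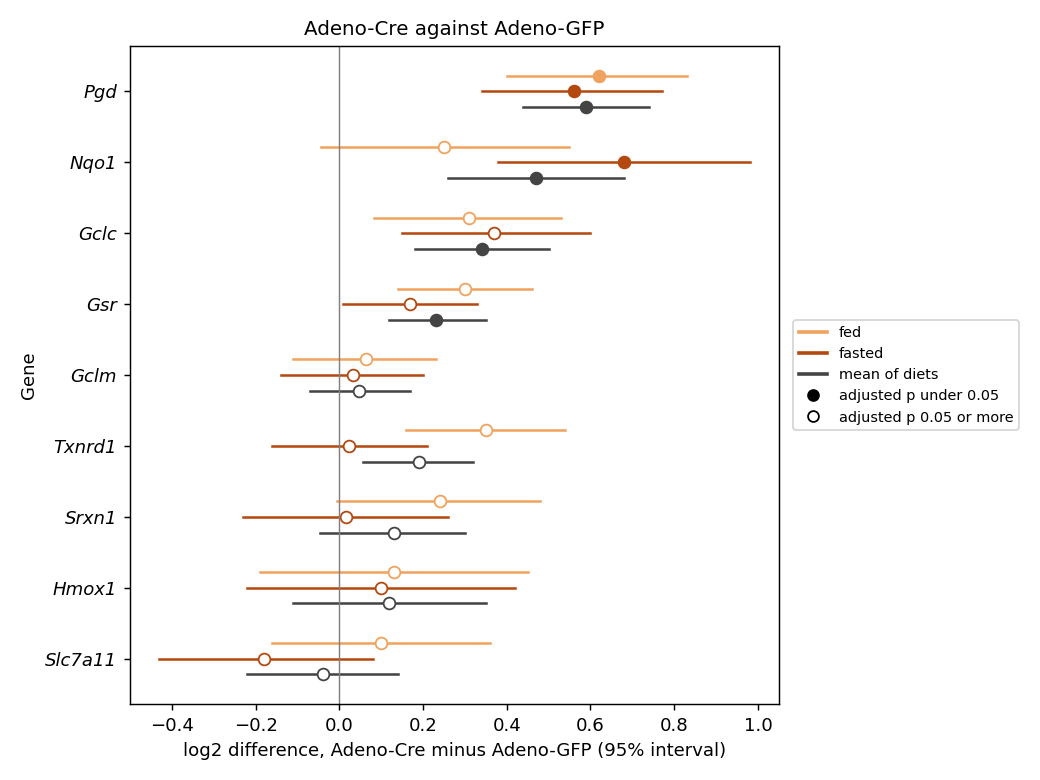
Log2 difference of Adeno-Cre minus Adeno-GFP livers (horizontal axis) for each measured member in fed livers, in fasted livers and averaged over diets, with 95% intervals; filled points have an adjusted p under 0.05. Pgd is filled in all 3 comparisons, Nqo1 in fasted livers and on average, and Gclc and Gsr on average only.

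The second question was how 24 hours of fasting bears on these genes. Pgd and Gclm fell with fasting over both injections and 0 of the 9 members rose, where 4.32% of all genes fell and 4.02% rose. The median of the members was -0.12, beside 0.0057 over all genes. Pgd was also the 1 member that fell within Adeno-GFP livers, where 1.87% of all genes fell and 1.2% rose, and within Adeno-Cre livers, where 1.17% fell and 1.5% rose. These comparisons use the same arrays as those between injections. Markers moved with fasting over both injections too: 6 of 19 cell cycle genes fell (median -0.41), as did 7 of 18 type I interferon response genes (median -0.49), 4 of 11 stellate (median -0.10), 3 of 15 Kupffer cell (median -0.18) and 1 of 11 sinusoidal endothelial markers (median -0.12). The array ranges of these lists are those given for the injections. Of the 8 hepatocyte markers 1 rose with fasting over both injections and 0 fell (median -0.0098). In the same comparison 1 of 10 monocyte and neutrophil markers (median 0.091) and 1 of 13 lymphocyte markers (median -0.14) fell, and 0 rose. The cell cycle count was 10 without Adeno-GFP fasted replicate 1. The interferon count was 3 without replicate 2 or 3 of Adeno-GFP fed, replicate 2 of Adeno-GFP fasted or replicate 2 of Adeno-Cre fasted, and 4 without replicate 1 of Adeno-Cre fed or replicate 3 of Adeno-Cre fasted. After each injection alone, 5 cell cycle genes fell in Adeno-GFP livers (median -0.6) and 0 in Adeno-Cre livers (median -0.19). Of the interferon genes, 0 fell in Adeno-GFP livers (median -0.074) and 10 in Adeno-Cre livers (median -0.96). The 5 calls ran from 1 to 8 and the 10 from 3 to 10 when 1 array was left out. The interaction passed for 0 genes of either list, with 9 and 17 at a limma unadjusted p under 0.05. The part of these markers in the fasting differences of Pgd and Gclm was not tested.

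Pgd fell by 0.55 in Adeno-GFP livers (SE 0.098, 1.46-fold, limma adjusted p = 0.012) and by 0.61 in Adeno-Cre livers (SE 0.098, 1.52-fold, limma adjusted p = 0.008). Its fasted arrays lay under its fed arrays after each injection. Over both injections it fell by 0.58 (SE 0.069, limma adjusted p = 0.000473), about as far as it rose with Adeno-Cre (0.59). Gclm was at 11.41, 11.44 and 11.39 in Adeno-GFP fed and 11.13, 11.23 and 11.03 in Adeno-GFP fasted livers. It was at 11.44, 11.43 and 11.56 in Adeno-Cre fed and 11.13, 11.25 and 11.11 in Adeno-Cre fasted livers. All 6 fasted arrays were under all 6 fed arrays, which among the members held for Gclm alone and in the same direction for 1.74% of all genes. Gclm fell by 0.30 over both injections (SE 0.055, 1.23-fold, limma adjusted p = 0.00584), with -0.28 in Adeno-GFP (limma adjusted p = 0.0766) and -0.31 in Adeno-Cre livers (limma adjusted p = 0.056). The 2 subunits of glutamate-cysteine ligase thus passed in different comparisons. Gclc differed with fasting by -0.21 (limma adjusted p = 0.112), and whether the 2 subunits differ in their response was not tested.

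Nqo1 and Gsr, called higher with Adeno-Cre, did not pass with fasting. Nqo1 differed by 0.15 over both injections (limma adjusted p = 0.411), with -0.061 in Adeno-GFP and 0.37 in Adeno-Cre livers (limma adjusted p = 0.205), where its fasted arrays all lay above the fed arrays. Gsr differed by 0.005 (limma adjusted p = 0.973). Txnrd1 differed by -0.28 in Adeno-Cre livers (limma adjusted p = 0.114) and by 0.044 in Adeno-GFP livers. For Srxn1, Hmox1 and Slc7a11 the differences over both injections were -0.044, 0.063 and -0.15.

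**Figure D3:**
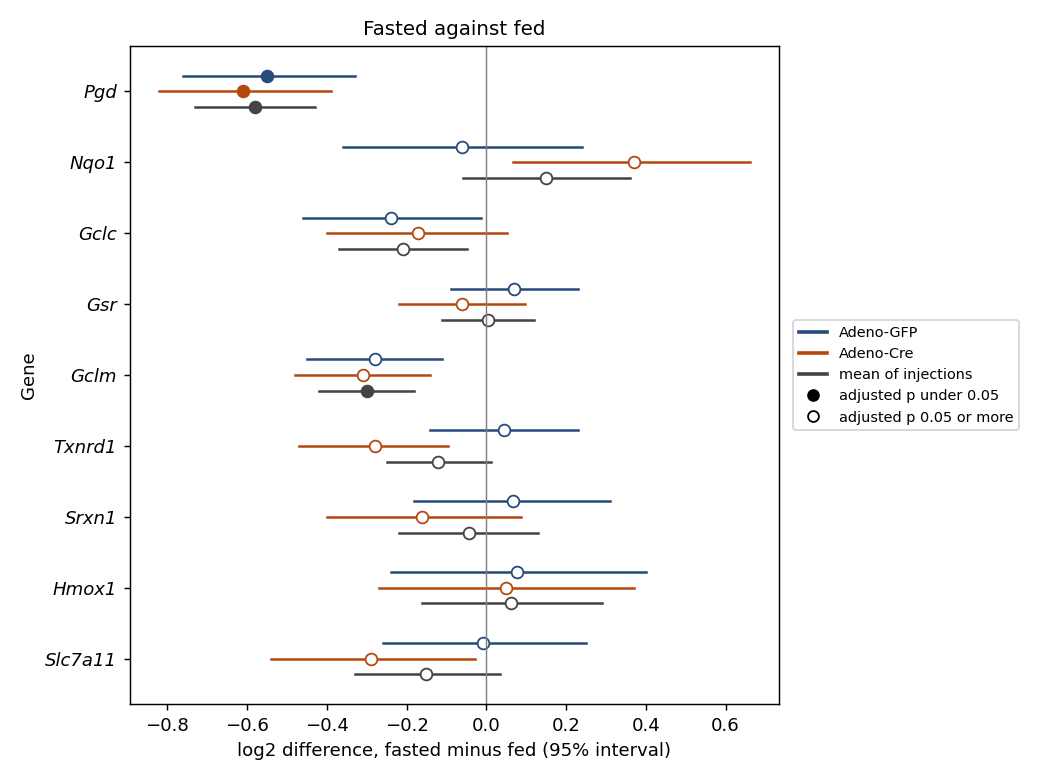
Log2 difference of fasted minus fed livers (horizontal axis) for each measured member after Adeno-GFP, after Adeno-Cre and averaged over injections, with 95% intervals; filled points have an adjusted p under 0.05. Pgd is filled in all 3 comparisons and lies between -0.55 and -0.61, and Gclm is filled on average (-0.30).

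The third question was whether the injection's effect depended on diet. The interaction passed for 0 of the 9 members in limma and for 1 of 22180 genes (0.00451%), and 2 members (Nqo1 and Txnrd1) had an unadjusted p under 0.05, as did 7.56% of all genes. Nqo1 had the larger Adeno-Cre difference in fasted livers (interaction 0.43, 95% interval 0.0055 to 0.85, limma adjusted p = 0.659). Txnrd1 had the larger one in fed livers (-0.33, 95% interval -0.59 to -0.065, limma adjusted p = 0.614). For Pgd the interaction was -0.062 with a 95% interval of -0.36 to 0.24 (limma adjusted p = 0.945). The Adeno-Cre differences of Nqo1 and Txnrd1 are therefore not shown to differ between diets once all genes are counted.

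The regulators of the program were read from a list of 13 measured genes. With Adeno-Cre over both diets 0 of 13 passed, 4 had an unadjusted p under 0.05, where 19.5% of all genes did, and the median was -0.029, beside -0.03 over all genes. Nfe2l2 itself was at 11.02 ± 0.075 and 10.80 ± 0.052 in fed livers after Adeno-GFP and Adeno-Cre, and at 10.69 ± 0.040 and 10.77 ± 0.21 in fasted livers (SD, n = 3). Its Adeno-Cre difference over both diets was -0.072 (SE 0.069, limma adjusted p = 0.612) and its fasting difference -0.18 (limma adjusted p = 0.149). Keap1, the inhibitor, differed by 0.15 with Adeno-Cre (limma adjusted p = 0.241), and its other probe set by -0.072, of opposite sign. Bach1, a repressor that competes for the same elements, differed by 0.0058 (limma adjusted p = 0.979). With fasting 1 of 13 rose, Mafg, a small MAF partner (0.28, SE 0.052, limma adjusted p = 0.00585). Transcript levels do not show the amount or the location of the NRF2 protein, which is mainly controlled after transcription.

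A wider list of 38 other measured NRF2 targets showed 6 genes that rose and 1 that fell with Adeno-Cre over both diets, with a median of 0.049 beside -0.03 over all genes. In fed livers 0 rose and 1 fell (median 0.0087), where 1.08% of all genes rose and 0.415% fell. In fasted livers 6 rose and 0 fell (median 0.082), where 2.26% rose and 0.482% fell. The fed call ran from 0 to 2 when 1 array was left out. The fasted calls became 3 without replicate 2 of Adeno-Cre fasted or of Adeno-GFP fasted. Gstm3, a mu class glutathione transferase, was at 10.78, 10.48 and 10.70 in Adeno-GFP fed, 8.65, 8.14 and 8.47 in Adeno-GFP fasted, 11.03, 11.36 and 11.30 in Adeno-Cre fed and 10.16, 10.05 and 10.44 in Adeno-Cre fasted livers. Its 4 groups did not overlap. Gstm3 rose 2.28-fold with Adeno-Cre over both diets (1.19, SE 0.10, limma adjusted p = 6.07e-05) and 3.48-fold in fasted livers (limma adjusted p = 0.000222). Gstm genes are close copies of each other, so its probe set may take up signal from its relatives. Ptgr1, a reductase of reactive alkenals, rose 1.81-fold (0.86, SE 0.093, limma adjusted p = 0.000207), from 6.80 ± 0.18 to 7.38 ± 0.14 in fed and from 6.19 ± 0.23 to 7.32 ± 0.15 in fasted livers (SD, n = 3). Ugdh, which makes UDP-glucuronic acid for conjugation, rose by 0.42 (limma adjusted p = 0.00425), and Me1, the cytosolic malic enzyme, by 0.38 (limma adjusted p = 0.00779). Abcc3, an exporter of conjugates and bile acids, fell by 0.39 (SE 0.076, limma adjusted p = 0.00948).

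With fasting, 14 of the same 38 targets fell over both injections and 1, Abcc3, rose, with a median of -0.17 beside 0.0057 over all genes. Gstm3 fell by 1.62 (SE 0.10, 3.08-fold, limma adjusted p = 4.11e-06), Me1 by 0.93 (limma adjusted p = 1.84e-05), Gstm6 by 0.62 (limma adjusted p = 0.000191) and Gstm1 by 0.42 (limma adjusted p = 0.000325). Ugdh fell by 0.47 (limma adjusted p = 0.00172) and Ptgr1 by 0.34 (limma adjusted p = 0.0442). Pgd, Gstm3, Ptgr1, Ugdh and Me1 thus each rose with Adeno-Cre and fell with fasting, but both differences rest on the same 12 arrays. Of the members, 2 of 9 fell with fasting. The interaction of Gstm3 was 1.22 (SE 0.21, limma adjusted p = 0.238) and 0 of the 38 passed, with 6 at an unadjusted p under 0.05.

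**Figure D4:**
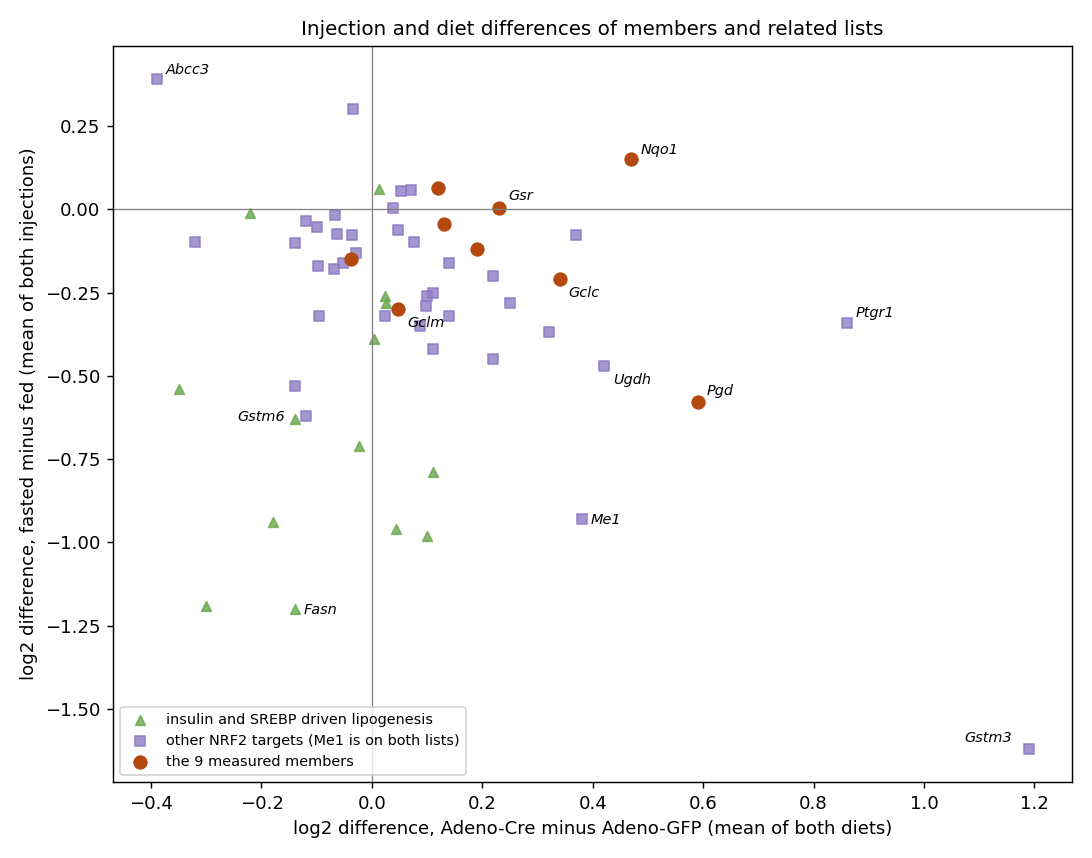
Each point is a gene, with its log2 difference of Adeno-Cre minus Adeno-GFP livers averaged over diets (horizontal axis) and of fasted minus fed livers averaged over injections (vertical axis); circles are the 9 measured members, squares the other NRF2 targets and triangles genes of insulin and SREBP driven lipogenesis. Gstm3 (1.19 and -1.62), Me1 (0.38 and -0.93) and Pgd (0.59 and -0.58) lie to the lower right, Nqo1 (0.47 and 0.15) lies above the horizontal line, and most lipogenesis genes lie low and close to the vertical line.

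The pentose phosphate pathway beside Pgd was covered by 12 measured genes. With Adeno-Cre over both diets 1 rose and 1 fell: Prps2, which makes phosphoribosyl pyrophosphate from the pathway's ribose phosphate, by 0.27 (limma adjusted p = 0.0353), and Shpk, a sedoheptulose kinase, by -0.30 (limma adjusted p = 0.0106). The median was -0.0079. These 2 calls became 1 when any array was left out other than replicate 3 of Adeno-GFP fed or replicate 1 of Adeno-Cre fed or Adeno-Cre fasted. With fasting 0 rose and 2 fell over both injections: Taldo1, transaldolase, by 0.35 (SE 0.067, limma adjusted p = 0.00681), and Rpe, ribulose-5-phosphate epimerase, by 0.28 (SE 0.057, limma adjusted p = 0.00966). Both belong to the non-oxidative branch. Pgls, the lactonase between the 2 dehydrogenases, differed by -0.033 with Adeno-Cre and 0.15 with fasting, neither of which passed.

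A list of other sources of NADPH and of enzymes related to them covered 18 genes, not all of which make NADPH themselves. Of those named here and below, Mthfd1l, Shmt2, Aldh4a1 and Me2 count as related enzymes. With Adeno-Cre over both diets 3 rose and 3 fell, with a median of -0.052. Mthfd1l, a mitochondrial folate enzyme, rose by 0.61 (SE 0.11, limma adjusted p = 0.00529), beside Me1 (0.38) and Mthfd2, another mitochondrial folate enzyme (0.34, limma adjusted p = 0.0433). Aldh1l1, the cytosolic formyltetrahydrofolate dehydrogenase, fell by 0.42 (limma adjusted p = 0.0181), Aldh4a1, of proline breakdown, by 0.29 (limma adjusted p = 0.0211) and Shmt2, the mitochondrial serine hydroxymethyltransferase, by 0.24 (limma adjusted p = 0.0343). The 6 calls became 2 without replicate 2 of Adeno-Cre fasted, and 3 without replicate 3 of Adeno-GFP fed, replicate 1 of Adeno-GFP fasted or replicate 3 of Adeno-Cre fed.

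With fasting 2 of these 18 rose and 3 fell. The cytosolic enzymes Me1 (-0.93) and Idh1 (-0.30, limma adjusted p = 0.0055) fell, as did the mitochondrial malic enzyme Me2 (-0.40, limma adjusted p = 0.00872). The mitochondrial Idh2 (0.46, limma adjusted p = 0.00119) and Nnt, the transhydrogenase of the inner membrane (0.29, limma adjusted p = 0.0285), rose. Me1 was at 11.16, 11.13 and 11.24 in Adeno-GFP fed, 9.94, 10.04 and 10.21 in Adeno-GFP fasted, 11.40, 11.29 and 11.42 in Adeno-Cre fed and 10.51, 10.83 and 10.53 in Adeno-Cre fasted livers. Its 4 groups did not overlap. Idh2 was at 10.38, 10.43 and 10.20, then 10.71, 10.71 and 10.69, then 10.51, 10.53 and 10.41, then 10.90, 10.99 and 11.21 in the same order of groups, with each injection's fasted arrays above its fed arrays.

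**Figure D5:**
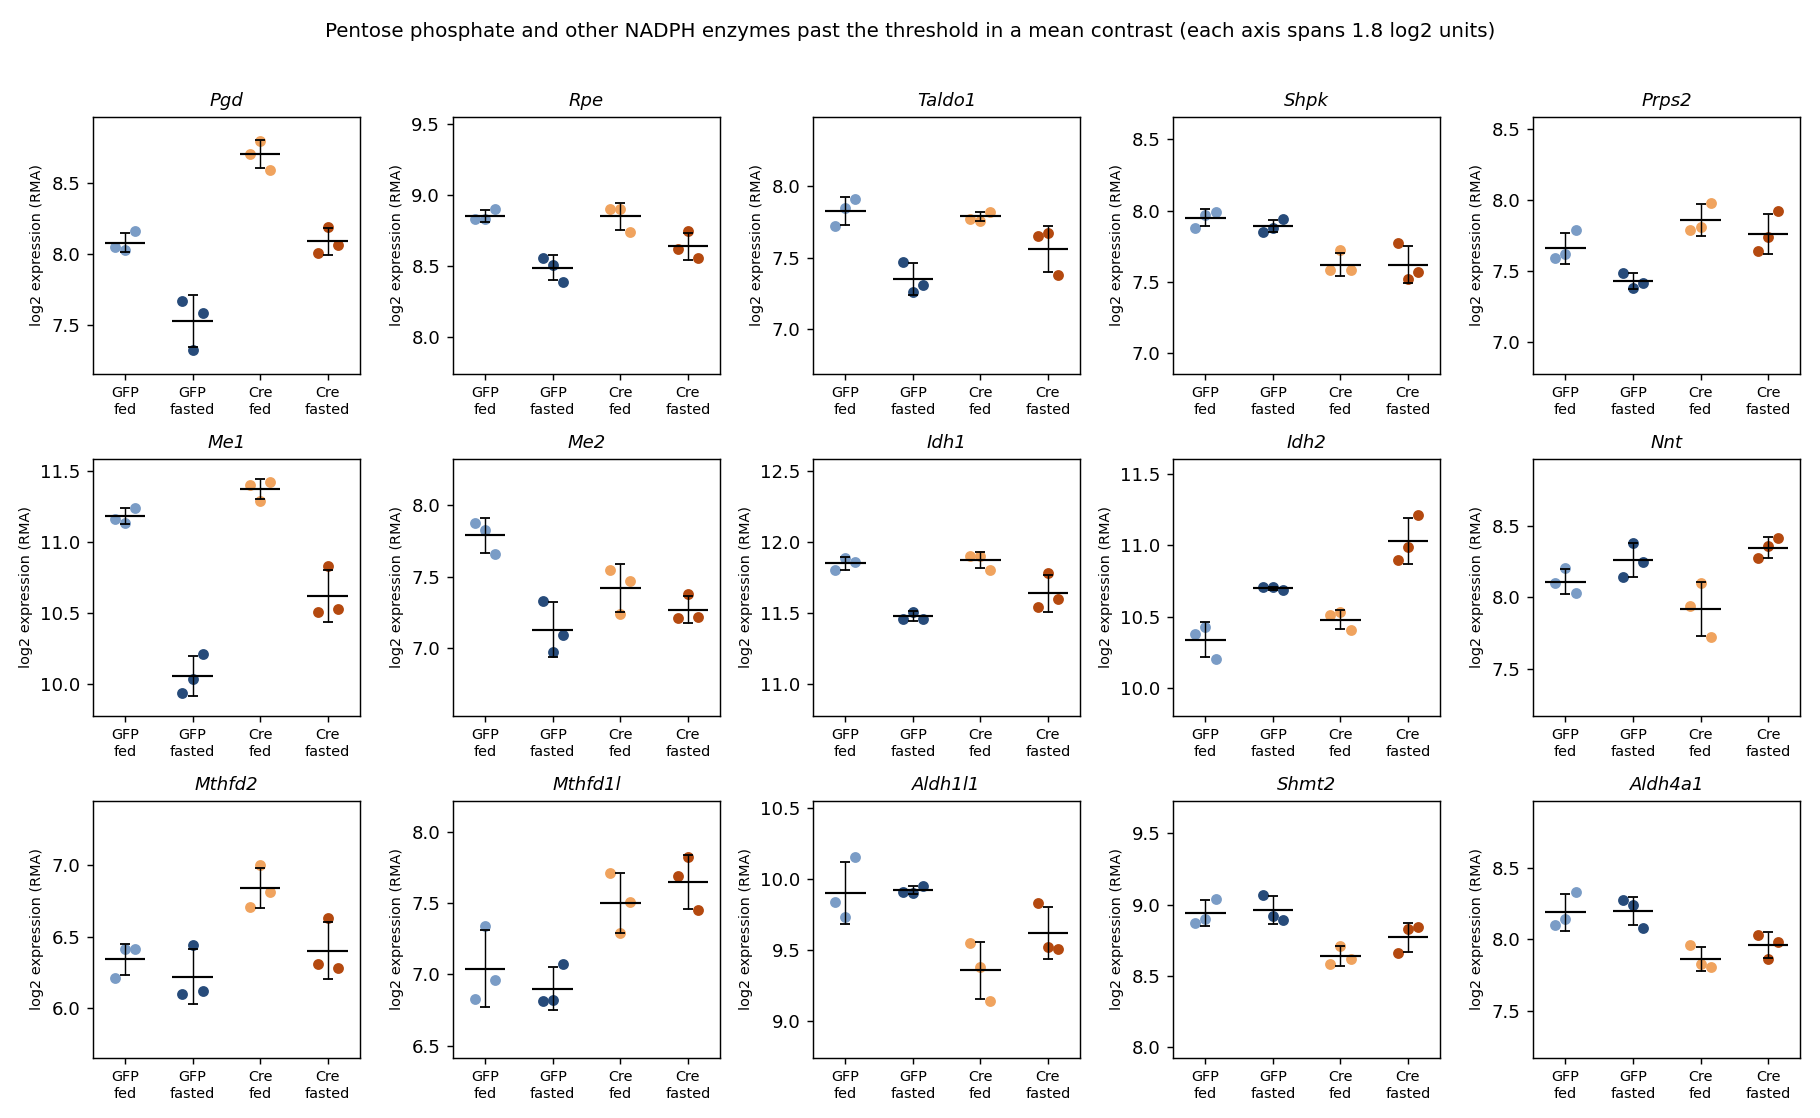
Log2 expression (vertical axis, spanning 1.8 units in every panel) in the 4 groups for 15 genes on the lists of the pentose phosphate pathway and of other NADPH sources and related enzymes. Shown are those that passed the threshold with Adeno-Cre over both diets or with fasting over both injections. Points are single arrays, horizontal lines group means and bars 1 SD (n = 3); Me1 and Pgd are lowest in Adeno-GFP fasted livers and highest in Adeno-Cre fed livers, and Idh2 is highest in Adeno-Cre fasted livers.

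Genes of insulin and SREBP driven lipogenesis, a large user of NADPH in the fed liver, were set beside Pgd. With fasting 12 of 15 fell over both injections, with a median of -0.71, among them Pklr, the liver pyruvate kinase (-0.98), and Fasn, fatty acid synthase (-1.20). With Adeno-Cre over both diets 1 rose (Me1, which is also on this list) and 1 fell (Acss2, acetyl-CoA synthetase, -0.35), with a median of 0.0044. Fasn differed with Adeno-Cre by -0.14 (limma adjusted p = 0.538) and Srebf1, the transcription factor of the list, by -0.14 (limma adjusted p = 0.307). These averages cover opposite signs by diet. In fed livers 1 of 15 differences was above 0 (median -0.11) and Srebf1 fell by 0.53 (SE 0.10, limma adjusted p = 0.0273), and in fasted livers 11 of 15 were above 0 (median 0.16), with 0.25 for Srebf1 (limma adjusted p = 0.243). The fed call, the 1 of this list, became 0 without any 1 array of Adeno-Cre fed or without replicate 3 of Adeno-GFP fed. The interaction passed for 0 of the 15 in limma, with 6 at an unadjusted p under 0.05, and was 0.77 for Srebf1 (SE 0.14, limma adjusted p = 0.294). The 2 calls over both diets became 1 when replicate 1 or 3 of Adeno-GFP fed or of Adeno-GFP fasted, replicate 2 or 3 of Adeno-Cre fed or replicate 2 of Adeno-Cre fasted was left out.

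The glutathione list without the members held 19 genes, of which 0 rose and 2 fell with Adeno-Cre over both diets. These were Cbs (-0.40, limma adjusted p = 0.00863) and Cth (-0.39, limma adjusted p = 0.0238), the 2 enzymes of transsulfuration that make cysteine from homocysteine, while Gclc and Gsr rose in the same comparison. A single call was left when replicate 1 or 3 of Adeno-GFP fed, replicate 1 of Adeno-GFP fasted, replicate 3 of Adeno-Cre fed or replicate 2 of Adeno-Cre fasted was left out. With fasting 5 rose and 2 fell, with a median of 0.19: Cth rose by 0.74 (limma adjusted p = 0.000498), Glrx, glutaredoxin, by 0.61 (limma adjusted p = 0.000124) and Oplah, 5-oxoprolinase, by 0.36 (limma adjusted p = 0.00283), and Chac2, a glutathione-degrading enzyme, fell by 0.32 (limma adjusted p = 0.00232). Gclm fell in that comparison.

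Of 19 genes of thioredoxin and peroxide removal beside the members, 0 rose and 2 fell with Adeno-Cre over both diets, with a median of -0.085. They were Sesn1, sestrin 1, a known p53 target (-0.23, limma adjusted p = 0.045), and Msra, a methionine sulfoxide reductase (-0.21, limma adjusted p = 0.0291). They became 0 or 1 when any array was left out other than replicate 3 of either fasted group. Of 19 heme and iron genes beside Hmox1, 0 passed with Adeno-Cre over both diets in limma, with 3 at an unadjusted p under 0.05 (19.5% of all genes), and the closest were Uros, of heme synthesis (-0.18, limma adjusted p = 0.0768), and Tfrc, the transferrin receptor (0.42, limma adjusted p = 0.0826). With fasting 2 rose and 1 fell: Cpox, of heme synthesis (0.41, limma adjusted p = 0.00173), Hmox2, the constitutive heme oxygenase (0.30, limma adjusted p = 0.0134), and Slc40a1, the iron exporter ferroportin (-0.30, limma adjusted p = 0.0255). Of 20 ATF4 targets other than Slc7a11, 3 rose with Adeno-Cre over both diets, among them the serine synthesis genes Psat1 (0.46, limma adjusted p = 0.00272) and Psph (0.26, limma adjusted p = 0.0336). A single ATF4 target was left when replicate 1 or 3 of Adeno-GFP fed, replicate 3 of Adeno-GFP fasted, replicate 2 or 3 of Adeno-Cre fed or replicate 1 or 2 of Adeno-Cre fasted was left out.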

How the data were processed

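Mouse liver RNA (200 ng per array) was hybridised to 12 Affymetrix arrays. The deposited values are log2 levels per probe set made by the authors with RMA, per the submitters' processing notes, which name no software or probe annotation. RMA gives all arrays the same distribution, which takes out a shift common to all genes and shrinks differences of dim probe sets. No detection calls were used, and the number of arrays limits the precision. Of 41345 probe sets, GEO's platform annotation named 1 gene for 23521, several for 1814 and none for 16010; 1082 of 22180 genes had over 1 probe set and kept the one with the highest mean.

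One limma fit (version 3.58.1, under R 4.3.3) took in all 12 arrays, with a mean for each labelled group and eBayes moderation. There were 7 contrasts, each adjusted by Benjamini and Hochberg over all genes, with intervals at 95%. The procedure was tested on simulated data. Members and lists were chosen with earlier results of these data known, and no list was tested as a set. The text names every measured member, up to 4 genes per list and comparison with the smallest p among those called (or 2 where none was), Nfe2l2, Keap1, Bach1, the 5 genes most like Pgd and 3 p53 targets; Shmt2, Nnt, Pgls, Lyz2 and further values of listed genes were added after their values were seen. Motifs were searched in RefSeq promoter windows (GRCm38.p6).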

Additional observations from a re-analysis of the deposited data

How the results depend on the processing

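Each of the 11 calls of members was fitted again with each of the 12 arrays left out in turn and under 6 or 7 other alternatives. The direction was kept in all 203 pairs of a call and an alternative, and the calls lost are given in the report. Other alternatives moved the number of members called: with genes under the median level left out it was 3 rather than 1 for Adeno-Cre in fed livers, 2 rather than 1 for fasting after Adeno-GFP and 3 rather than 1 after Adeno-Cre; with a trended, robust prior it was 3, 2 and 2 in the same order; with quantile normalisation it was 2 for fasting after Adeno-Cre. For Adeno-Cre in fasted livers it was 0 rather than 2 when only the groups compared were fitted and 1 when all probe sets were tested. It was 3 there with genes under the median level left out or with a trended, robust prior. For Adeno-Cre over both diets it was 5 rather than 4 with genes under the median level left out. For fasting over both injections it was 3 rather than 2 with a trended, robust prior. Leaving out each array in turn gave 0 to 1 members for Adeno-Cre in fed livers and 1 to 2 in fasted livers. Over all genes the calls for Adeno-Cre in fed livers, 331, ran from 59 (all probe sets) to 606 (genes under the median left out), and to 31 without Adeno-GFP fed replicate 3, and were 42, 114, 151 and 83 without Adeno-GFP fed replicate 1 and Adeno-Cre fed replicates 1, 2 and 3. For Adeno-Cre in fasted livers the 609 became 355 and 385 without replicate 2 of Adeno-Cre fasted and of Adeno-GFP fasted, and over both diets the 1239 became 824 without Adeno-GFP fed replicate 3. For fasting after Adeno-GFP the 682 became 308 and 275 without Adeno-GFP fed replicates 1 and 2, and 412, 441 and 379 without Adeno-GFP fasted replicates 1, 2 and 3. For fasting after Adeno-Cre the 592 became 243, 330 and 283 without Adeno-Cre fed replicates 1, 2 and 3, and 207 and 246 without Adeno-Cre fasted replicates 1 and 2. The shares of all genes printed beside the members' counts move with these numbers. For fasting over both injections the 1850 became 1239 to 1790 when 1 array was left out. They were 1134 with all probe sets tested and 2452 with genes under the median left out. The interaction count stayed at 1 with genes under the median left out, a trended, robust prior or the mean of a gene's probe sets. It was 0 with quantile normalisation, the replicate block or all probe sets tested. Among the fits that left out 1 array, it was 1 only without Adeno-GFP fed replicate 3 or Adeno-GFP fasted replicate 3. With the replicate number as a block, 1, 2, 4, 1, 1, 2 and 0 members passed in the 7 comparisons, as without it. Same-numbered arrays did not deviate together (r from -0.0905 to 0.112 over 12 pairs, 1 over 0.1), so the numbers were not taken to pair the arrays. With 3 arrays a group, small differences of Srxn1, Hmox1 and Slc7a11 could not be resolved.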
